A study of Mus musculus with 228 samples.

Results

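The nuclear genes of oxidative phosphorylation comprised 84 of the 22870 gene rows of the count table. They were chosen by symbol alone, as the Nduf, Sdh, Uqcr, Cyc1, Cox and Atp5 genes without pseudogenes. By symbol, 36 were counted under complex I, 4 under complex II, 9 under complex III, 18 under complex IV and 17 under complex V. Ndufa4 was counted under complex I with the other Nduf genes, although it is now assigned to complex IV. Atp5s, now named Dmac2l, matched the symbol rule although it is no core subunit of ATP synthase. The RNA came from single neurons whose contents were drawn into a patch pipette in slices of mouse ventral hippocampus and sequenced one by one. All mice were 3 to 4 months old, and every recorded neuron had received a virus that makes EGFP in cells with Cre recombinase.

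Granule cells of the dentate gyrus (GC) were reached through the Calb1-Cre line and medial CA1 pyramidal cells (CA1) through the Nex-Cre line. The EGFP GC group (47 cells) and the EGFP CA1 group (46 cells) had received AAV-EGFP alone. The Ascl4 GC group (51 cells) and the Ascl4 CA1 group (45 cells) had received AAV-EGFP together with AAV-Ascl4, which carries the basic helix-loop-helix transcription factor Ascl4. All cells were taken 1 month after the injection. Cell type and Cre line cannot be told apart, and a control virus given in the place of AAV-Ascl4 is in none of the groups. Animals are not named in the labels. Each group was therefore taken as 1 sample, and no difference was tested. Values are given with their spread over cells, which are not replicates of a treatment.

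Oxidative phosphorylation couples the transfer of electrons from NADH and succinate to oxygen with the pumping of protons across the inner mitochondrial membrane. Complex I takes electrons from NADH and complex II from succinate, complex III passes them to cytochrome c, complex IV hands them to oxygen, and complex V uses the proton gradient to make ATP. Most subunits are encoded in the nucleus and imported, while complexes I, III, IV and V also hold subunits encoded by mitochondrial DNA. Neurons rely on this pathway for the ATP that ion pumping and synaptic transmission consume.

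The stretches upstream of 5 members are shown because these genes had the highest ratios between Ascl4 GC and EGFP GC. They are given 5′ to 3′ in the direction of the gene, in RefSeq's build GRCm38.p6. Each ends before the first annotated exon of its gene, and capitals mark E-boxes (CANNTG), the hexamer that basic helix-loop-helix factors bind.
Ndufa9, chr6:126849145-126849394, minus strand: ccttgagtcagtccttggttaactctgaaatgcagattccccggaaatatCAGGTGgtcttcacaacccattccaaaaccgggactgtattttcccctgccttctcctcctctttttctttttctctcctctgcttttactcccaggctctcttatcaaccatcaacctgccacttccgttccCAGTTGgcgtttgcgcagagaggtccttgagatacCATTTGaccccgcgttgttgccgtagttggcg
Ndufc2, chr7:97399753-97400002, plus strand: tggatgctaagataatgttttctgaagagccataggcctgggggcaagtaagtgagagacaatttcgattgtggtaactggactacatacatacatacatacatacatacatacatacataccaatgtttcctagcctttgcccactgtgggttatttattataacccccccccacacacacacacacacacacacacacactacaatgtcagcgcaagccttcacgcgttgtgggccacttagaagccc
Ndufv1, chr19:4012807-4013005, minus strand: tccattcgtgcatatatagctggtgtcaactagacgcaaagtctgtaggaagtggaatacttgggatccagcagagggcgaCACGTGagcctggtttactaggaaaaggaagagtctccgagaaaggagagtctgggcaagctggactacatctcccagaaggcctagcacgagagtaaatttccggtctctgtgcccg
Sdhb, chr4:140961021-140961202, plus strand: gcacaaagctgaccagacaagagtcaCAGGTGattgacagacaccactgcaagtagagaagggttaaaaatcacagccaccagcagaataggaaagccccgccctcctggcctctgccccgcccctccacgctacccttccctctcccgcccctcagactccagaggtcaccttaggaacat
Atp5b, chr10:128083057-128083272, plus strand: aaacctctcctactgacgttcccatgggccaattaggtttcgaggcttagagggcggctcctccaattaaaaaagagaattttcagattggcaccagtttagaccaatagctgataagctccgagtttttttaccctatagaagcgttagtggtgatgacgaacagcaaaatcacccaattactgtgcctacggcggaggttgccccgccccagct
Over the 250 bases upstream of each RefSeq start, with both strands searched, CANNTG was found in 43 of the 68 members that matched the table (63.2%) and in 66.2% of all 32851 windows. CAGGTG, 1 form of this hexamer, was found in 13 of the 68 (19.1%) against 17.2%, among them Ndufa9 and Sdhb. These matches are also counted under CANNTG. Ndufc2 had no E-box in its window.

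Motifs of factors known for respiratory genes were counted the same way. The NRF1 motif GCGCATGCG was found in 6 of the 68 members (8.82%) and in 1.45% of all windows, and the ETS motif CCGGAAG, which GABP binds, in 12 (17.6%) and 6.91%. Of the 13 members that were at least 1.5-fold higher in Ascl4 GC than in EGFP GC, 9 matched the table. The NRF1 motif was found in 0 of these 9 and the ETS motif in 1 (Uqcrh). The NRF1 counts depended on the form searched: with 1 free base (GCGCNTGCG) the motif was found in 16 of the 68 members (23.5%), in 5.19% of all windows and in 1 of the 9 (Ndufs6). The form counted first, which has 1 more C at the end of the latter, was found in 13 (19.1%), in 3.74% of all windows and in the same 1 of the 9. AAGGTCA, which estrogen-related receptors bind, was found in 5 of the 68 members (7.35%) and in 4.08% of all windows, and GGGCGG, an Sp1 motif, in 25 (36.8%) and 32.7%. The YY1 motif AAGATGGC was found in 1 of the 68 (1.47%) and in 1.56% of all windows. Median GC content was 56.0% in the members' windows and 52.4% in all windows.

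The cells held between 1077532 and 25442664 reads each. The labels state 53 EGFP GC and 52 Ascl4 GC cells past quality control, and 48 EGFP CA1 and 51 Ascl4 CA1 cells, where the table held 47 and 51, and 46 and 45. Ascl4 itself stood at 47.2 counts per 1000000 reads (CPM) in EGFP GC and 14111 in Ascl4 GC, and at 32.5 in EGFP CA1 and 9395 in Ascl4 CA1. The ranges met: the highest EGFP GC cell (221.7 CPM) lay above the lowest Ascl4 GC cell (182.9 CPM), and the lowest Ascl4 CA1 cell (23.2 CPM) lay within the range of EGFP CA1. Markers of granule cells summed to 5795 CPM in EGFP GC and 784 in EGFP CA1, and markers of CA1 pyramidal cells to 457 and 6073 CPM. In Ascl4 GC, granule cell markers summed to 4145 CPM, with 3 of 20 at least 1.5-fold higher than in EGFP GC and 9 lower. In Ascl4 CA1, CA1 markers summed to 5142 CPM, with 3 of 18 higher than in EGFP CA1 and 9 lower, and granule cell markers to 1367 CPM, with 5 of 7 higher and none lower. Over all expressed genes (limit given below), 25.6% were higher and 30.7% lower in Ascl4 GC, and 24% and 24.3% in Ascl4 CA1. The median log2 ratio of granule cell markers in Ascl4 GC was 0.08 in the first run of title numbers and -1.2 in the second. In Ascl4 CA1 it was 1.21 and 0.99 for granule cell markers and -0.33 and -0.65 for CA1 markers. The part of these marker shifts in the members' values was not tested. In 3 Ascl4 GC cells and 5 Ascl4 CA1 cells, and in none of the EGFP cells, markers of the other cell type exceeded those of the label. More than 12000 genes had a read in 4 Ascl4 GC cells and 1 Ascl4 CA1 cell.

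A member counted as expressed in a comparison when 1 of the groups had a read in 25% of its cells or more and 1 reached 10 CPM in summed reads. The same 76 members were expressed in each comparison. The other 8 were Atp5g2, Cox4i2, Cox6a2, Cox6b2, Cox7a1, Cox7b2, Cox8b and Cox8c. On the scale of CPM per kb of exon, which allows levels of genes of unequal length to be set side by side, Cox4i1 (1010), Atp5b (974) and Cox8a (951) led, as means of the 4 groups. Cox4i1 and Cox8a encode nuclear subunits of cytochrome c oxidase, and Atp5b encodes the catalytic beta subunit of ATP synthase. Ndufa4 led the Nduf genes at 568 CPM per kb, Uqcrc1 (core protein of complex III) had 474, and Sdhb (the iron-sulfur subunit of complex II) 352. The lowest expressed members were Sdhc (18.1), a membrane anchor of complex II, Ndufb4 (19.3) and Atp5g1 (22.9), on the same scale.

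**Figure D1:**
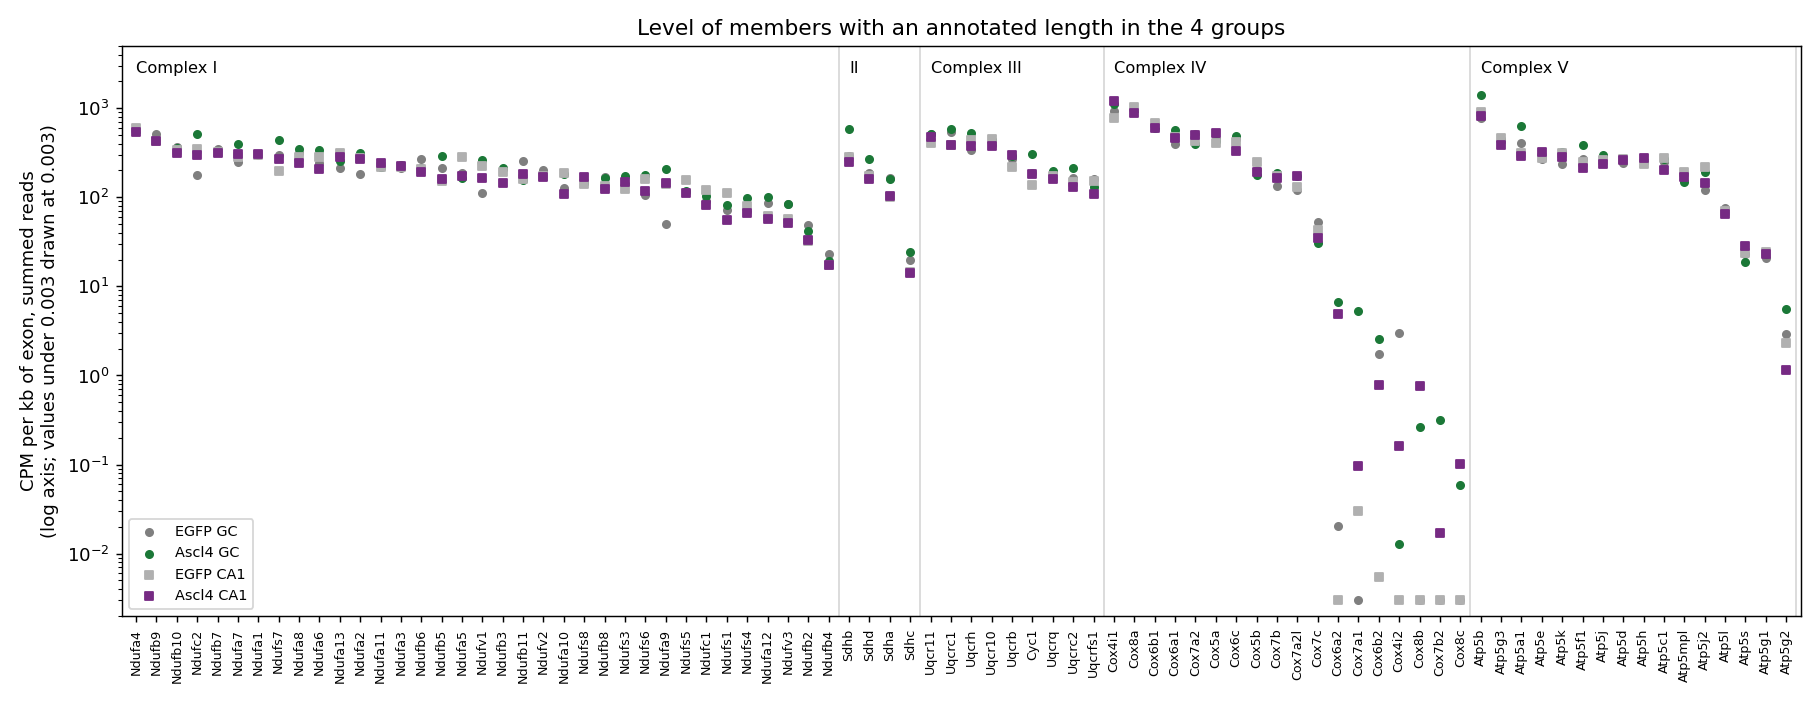
Level of the members with an annotated length, 1 of them not drawn, in the 4 groups, in CPM per kb of exon on a log axis, ordered by complex and by mean level. Symbols of the 4 groups lie close together for most members, while Ndufa9, Ndufc2, Ndufv1 and Sdhb show a spread between groups, and 7 complex IV members and Atp5g2 lie far below the rest.

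The subunits of one complex were not read at one level. Within complex II, levels ran from 18.1 CPM per kb for Sdhc through 132.2 for Sdha, the flavoprotein, to 352 for Sdhb. Levels of genes with processed copies in the genome are uncertain: 84.8% of the 50-base stretches of the Atp5l transcripts also occurred in another annotated gene, 43.4% of those of Uqcrb, 37% of those of Ndufb4 and 23% of those of Cox7c. Of the 83 members with a position in the annotation, 23 had more than 10% of such stretches in another gene. In 21 members, exon bases overlapped a gene on the other strand, for example 20.1% of Cox4i1 with Emc8. Without strand information, reads of such pairs cannot be told apart. Across the 83 members, the share of such stretches and the level in CPM per kb had a rank correlation of -0.05, as a description across genes.

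Cell by cell, many members were near 0 in some cells and high in others. Of 3572 values of the 76 expressed members in EGFP GC cells, 27.2% lay under 10 CPM, 7.61% between 10 and 50 CPM, and 65.2% at 50 CPM or more. The share under 10 CPM was 27% in Ascl4 GC, and in CA1 cells it was 22.7% for EGFP CA1 and 18.9% for Ascl4 CA1. Ndufa9, an accessory subunit of complex I, is an example of the split in EGFP GC: 16 of 47 cells reached 10 CPM, with a median of 209.6 CPM among those cells, while the median of all cells was 1.31 CPM. Atp5b lay at the other end, reaching 10 CPM in 98.9% of all cells. A median EGFP GC cell had 61 members at 10 CPM or more, against 59 in Ascl4 GC, while a median cell of EGFP CA1 had 62.5 and one of Ascl4 CA1 65. The single cells ranged from 16 to 78 members. When every cell was thinned to 500000 reads, the medians of members with a read were 67, 68, 67 and 69, in the same order.

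The median member varied less between cells than the median expressed gene did. Their median coefficient of variation was 114.4% in EGFP GC and 115.4% in Ascl4 GC, and 100.4% in EGFP CA1 against 109.4% in Ascl4 CA1. Over 10715 expressed genes it was 288%, 299%, 239.8% and 234.4%, and over the 6573 genes past a stricter expression limit (a read in 50% of cells and 50 CPM) 231.8%, 248.4%, 193.5% and 188.4%. Atp5s was the most variable expressed member in every group, from 221.8% to 339%. The least variable ones were Ndufa4 (68.7%) in EGFP GC, Atp5b (53.5%) in Ascl4 GC, Atp5a1 (67.8%) in EGFP CA1 and Cox8a (52.8%) in Ascl4 CA1. Uqcrfs1, the Rieske iron-sulfur protein of complex III, had the largest coefficient (186.3%) among members with a read in at least 90% of cells.

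The 84 members together took 2.0% of the reads of EGFP GC and 2.48% of Ascl4 GC, and 2.0% of EGFP CA1 against 1.88% of Ascl4 CA1. Per cell, the share ran from 0.653% to 3.29% with a median of 2.01% in EGFP GC, and from 0.927% to 4.48% with a median of 2.45% in Ascl4 GC. In EGFP CA1 it ran from 0.775% to 4.01% (median 1.96%), and in Ascl4 CA1 from 0.586% to 5.37% (median 1.78%). The Ascl4 GC cells sat higher as a group, but all 4 ranges overlapped. Complex V accounted for the largest part of the difference in granule cells, with 0.563% of reads in EGFP GC and 0.784% in Ascl4 GC. Complex I took 0.699% and 0.841%, complex II 0.109% and 0.155%, complex III 0.278% and 0.325%, and complex IV 0.352% and 0.375%. In CA1 cells the shares in EGFP CA1 and Ascl4 CA1 were 0.743% and 0.67% for complex I, 0.0873% and 0.0835% for complex II, 0.239% and 0.234% for complex III, 0.345% and 0.367% for complex IV, and 0.581% and 0.524% for complex V.

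**Figure D2:**
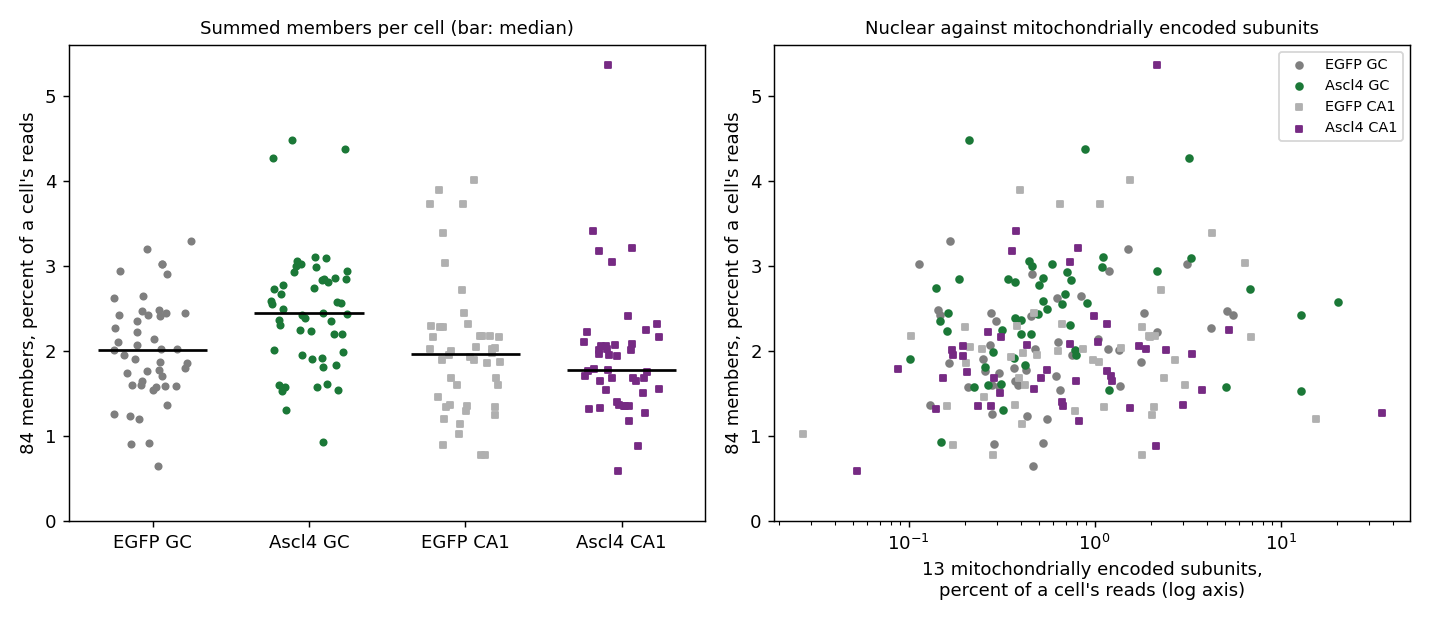
Left, the summed share of the 84 members in each cell's reads, with 1 point per cell and a bar at the median (2.01%, 2.45%, 1.96% and 1.78% from left to right). Right, the same share against that of the 13 mitochondrially encoded subunits on a log axis. The points form no clear line, with rank correlations from 0.07 to 0.28 within groups, and from 0.17 to 0.38 with mitochondrial reads left out of the total.

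Between Ascl4 GC and EGFP GC, 13 of the 76 expressed members were at least 1.5-fold higher in Ascl4 GC, 2 were at least 1.5-fold lower and 61 lay between. The background over all 9783 expressed genes was 25.6% higher and 30.7% lower, against 17.1% and 2.63% of the members. Past a stricter expression limit the background was 21.4% higher and 28.8% lower. The number of higher members was 8 in the mean over cells with the top cell of each group left out, 8 without the deepest 10% of cells and 22 with the authors' normalized values. In the same order, 26.6%, 27.4% and 31.1% of all expressed genes were higher in these settings. The median log2 ratio of the members was 0.13 and that of all expressed genes -0.08, and the median size of a ratio, regardless of sign, was 0.24 for members and 0.69 for all. The 13 comprised 7 of the 36 expressed members of complex I (19.4%), 1 of 4 of complex II (25%) and 2 of 9 of complex III (22.2%). Complex V held 3 of its 16 (18.8%) and complex IV none of its 11. All these shares lay under the 25.6% of all expressed genes. In Ascl4 GC, 10 of the 13 had a higher share of cells at 10 CPM or more, 11 a higher median among those cells and 8 both. All 13 were also higher in the mean over cells and in both of the separate runs of cell numbers in the titles. These use the same cells that gave the 13, so they are no separate support. In the mean over cells, 10 of the 13 passed 1.5-fold. Of the 76 members, 42 had the same sign in both runs and 6 were at least 1.5-fold higher in both. Of the 9783 expressed genes, 5191 and 1224 did so.

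In complex I, Ndufa9 differed most. It ran from 0 to 1049 CPM with a median of 1.31 in EGFP GC cells, and from 0 to 2270 CPM with a median of 7.42 in Ascl4 GC cells. It reached 10 CPM in 34% of EGFP GC cells (exact 95% binomial interval 20.9% to 49.3%) and in 49% of Ascl4 GC cells (34.8% to 63.4%). The ranges overlapped, as did the intervals, which treat cells as independent draws. The cells that had the transcript held more of it in Ascl4 GC (median 339.7 against 209.6 CPM). Summed reads gave 76.2 and 313 CPM, a log2 ratio of 2.02, and the mean over cells gave 1.48. The gene lies at chr6:126821721-126849136 on the minus strand (GRCm38), and 4.43% of its exon bases overlap an antisense transcript.

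Ndufc2, an accessory subunit of the membrane arm at chr7:97400003-97407802, was present in more cells. It ran from 0 to 1119 CPM with a median of 102.6 in EGFP GC cells, and from 0.402 to 2039 CPM with a median of 197.6 in Ascl4 GC cells. The shares at 10 CPM or more were 25 of 47 and 41 of 51 cells, 53.2% (38.1% to 67.9%) and 80.4% (66.9% to 90.2%). The log2 ratio of summed CPM (133.9 and 384.8) was 1.52.

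Ndufv1 encodes the flavoprotein that takes electrons from NADH, at chr19:4007384-4012806. Its EGFP GC cells ran from 0.164 to 1541 CPM with a median of 6.71, and its Ascl4 GC cells from 0.444 to 1559 CPM with a median of 292.9. The highest cells were alike, and the difference lay in the share of cells at 10 CPM or more (46.8% and 68.6%) and in the median of those cells (305.5 and 480 CPM). The log2 ratio of summed CPM (196.96 and 467.9) was 1.24. Other complex I members past 1.5-fold included Ndufa2 (0.78), Ndufs6 (0.77) and Ndufa7 (0.67), as log2 ratios of summed CPM. Ndufs7 and Ndufs8, core subunits that carry iron-sulfur clusters, had log2 ratios of 0.57 and -0.06, and Ndufs1, the largest core subunit, 0.19.

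**Figure D3:**
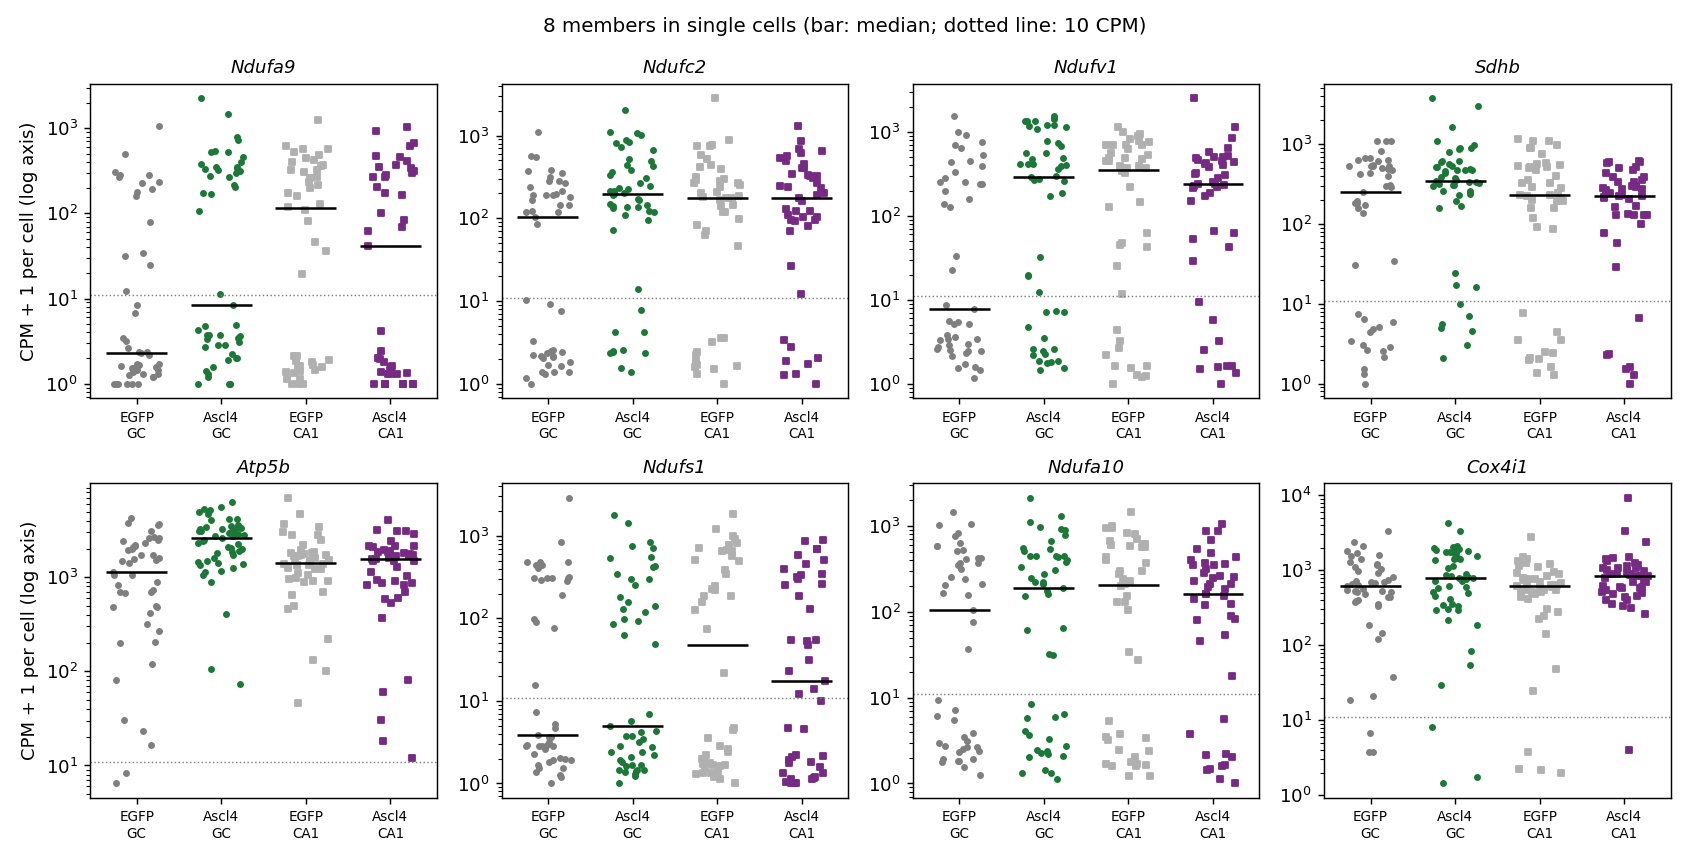
CPM + 1 in single cells on a log axis for 8 members in the 4 groups, with 1 point per cell, a bar at the median and a dotted line at 10 CPM. For Ndufa9, Ndufc2, Ndufv1, Sdhb, Ndufs1 and Ndufa10 the cells form a low and a high cloud, and all groups overlap; the Atp5b median is 1145 in EGFP GC and 2626 in Ascl4 GC.

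In complex II, Sdhb alone passed 1.5-fold. It ran from 0 to 1104 CPM with a median of 251 in EGFP GC cells, and from 1.11 to 3799 CPM with a median of 341 in Ascl4 GC cells. Of the cells, 32 of 47 and 44 of 51 had 10 CPM or more. The log2 ratio of summed CPM (328 and 672) was 1.03, and with the top cell of each group left out the ratio of means was 0.57, under 1.5-fold. Sdhc, Sdhd and Sdha had log2 ratios of 0.30, 0.52 and -0.02. In complex III, Cyc1, the heme protein cytochrome c1, had a log2 ratio of 0.72 and Uqcrh, the hinge protein, 0.62. Cyc1 medians were alike (207.6 CPM in EGFP GC and 206.5 in Ascl4 GC). Its ratio was 2.48 in the first number run and 0.07 in the second. Uqcrc1, Uqcrc2 and Uqcrfs1 had log2 ratios of 0.13, 0.37 and -0.27.

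Complex V held the member with the most cells behind its difference. Atp5b, at chr10:128083273-128090391, ran from 5.43 to 4294 CPM with a median of 1145 in EGFP GC cells, and from 71.7 to 6323 CPM with a median of 2626 in Ascl4 GC cells. The ranges overlapped, but 45 of the 51 Ascl4 GC cells lay above the EGFP GC median. The log2 ratio of summed CPM (1491 and 2664) was 0.84, the ratio of means 0.91 and the ratios in the 2 number runs 1.21 and 0.74. Atp5a1, the alpha subunit of the same catalytic head, had a log2 ratio of 0.65, with 32 of 51 cells above the EGFP GC median, and Atp5j2, subunit f of the membrane part, 0.66. The expressed genes of the c-ring, Atp5g1 (0.14) and Atp5g3 (-0.10), lay within 1.5-fold.

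Complex IV stood near parity in granule cells. Its 11 expressed members had log2 ratios from -0.75 to 0.54 with a median of 0.01. Cox7a2l, which helps join complexes III and IV into supercomplexes, had 0.54, Cox6a1 0.52, Cox4i1 0.25, Cox8a 0.01, Cox5a -0.05, Cox5b -0.21 and Cox7a2 -0.36. Cox7c had -0.75 and was, with Ndufb11 of complex I (-0.71), one of the 2 members at least 1.5-fold lower. Cox7c reached 10 CPM in 29 of 47 EGFP GC cells and 31 of 51 Ascl4 GC cells, with medians of 20.6 and 22.1 CPM, so that the lower sum came with like medians. Neither Cox7c (-0.57) nor Ndufb11 (-0.49) passed 1.5-fold in the mean over cells.

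**Figure D4:**
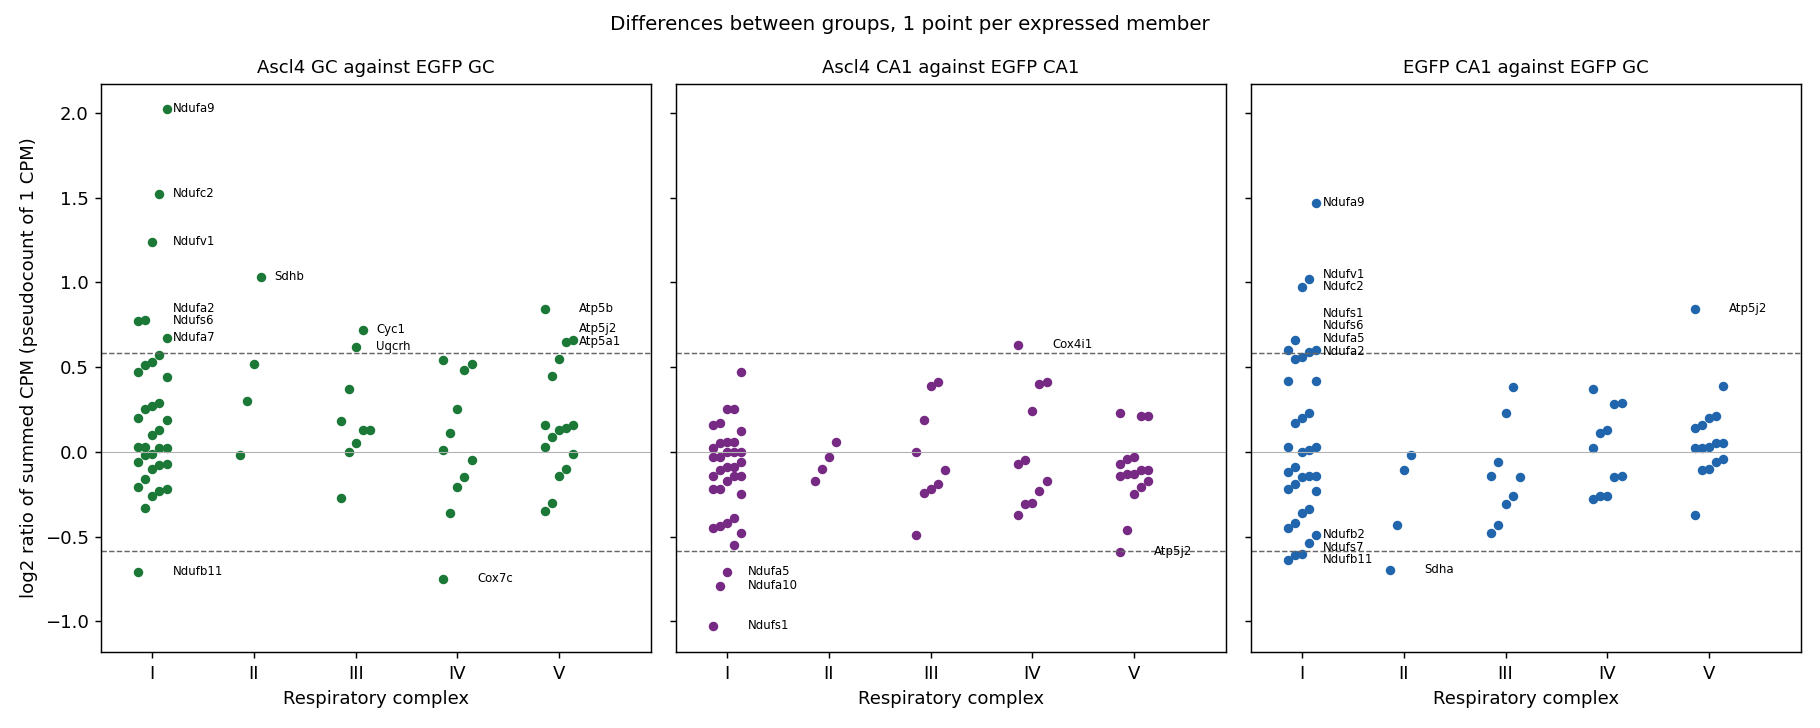
Log2 ratio of summed CPM (pseudocount of 1 CPM) for the expressed members, 1 of them not drawn, by complex in the 3 comparisons, with dashed lines at 1.5-fold and names beside members past it. Complex I spreads widest, from -0.71 to 2.02 in Ascl4 GC against EGFP GC, while complex IV stays within 1.5-fold in EGFP CA1 against EGFP GC.

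Between Ascl4 CA1 and EGFP CA1, 1 member was at least 1.5-fold higher in Ascl4 CA1, 4 were lower and 71 of 76 lay between. The background over 9781 expressed genes was 24% higher and 24.3% lower, and past a stricter expression limit 19.9% and 21%. The members' median log2 ratio was -0.10, against -0.02 for all expressed genes. The split was 0 higher and 5 lower with TMM or median-of-ratios scaling, and 4 higher and 10 lower with the authors' normalized values. In the same order, these settings gave 22%, 22.2% and 23.7% of all expressed genes higher and 26.6%, 26.3% and 29.5% lower. In the first number run the members' median was -0.34 and in the second 0.08, so the direction of the median differed between the runs.

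Ndufs1, at chr1:63143596-63176833, had the lowest ratio. It ran from 0 to 1848 CPM with a median of 46.96 in EGFP CA1 cells, and from 0 to 902.7 CPM with a median of 16.3 in Ascl4 CA1 cells. The level of 10 CPM was met by 24 of 46 cells of EGFP CA1 and by 25 of 45 cells of Ascl4 CA1, whose median was 502 in EGFP CA1 and 257 CPM in Ascl4 CA1. The cells at 10 CPM or more were as frequent in both groups and held less in Ascl4 CA1, for a log2 ratio of summed CPM of -1.03. Ndufa10 likewise held less per cell, reaching 10 CPM in 30 of 46 and 34 of 45 cells with medians of 421 and 238 CPM among them and a log2 ratio of -0.79. Ndufa5 (-0.71) had 12 of 45 Ascl4 CA1 cells above the EGFP CA1 median, and Atp5j2 (-0.59) had 15. Ndufa10 (-0.45) and Atp5j2 (-0.43) did not pass 1.5-fold in the mean over cells.

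Cox4i1, which encodes the widely expressed isoform of subunit 4, was the member at least 1.5-fold higher in Ascl4 CA1. It ran from 0.957 to 2792 CPM with a median of 620.1 in EGFP CA1 cells, and from 3.07 to 9282 CPM with a median of 825 in Ascl4 CA1 cells. The log2 ratio was 0.63. It was 0.45 in the mean with the top cell of each group left out and 0.32 without the 5 cells that went against their label, both under 1.5-fold. Atp5b and Atp5a1 had log2 ratios of -0.13 and -0.11, Ndufa9 0.02, Ndufc2 -0.22, Ndufv1 -0.45 and Sdhb -0.17. Whether these differ from the ratios in granule cells was not tested.

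Between the control groups, 8 of 76 members were at least 1.5-fold higher in EGFP CA1 than in EGFP GC, 4 were lower and 64 lay between. The background over 9954 expressed genes was 30.5% higher and 27.1% lower, and past the stricter limit 26.4% and 25.8%. The median log2 ratio was -0.01 for members and 0.02 for all expressed genes. With TMM or median-of-ratios scaling, the split was 4 higher and 7 lower, and with the authors' normalized values 4 higher and 25 lower. These scalings moved the median of all expressed genes to -0.09, -0.09 and -0.24, and that of the members to -0.12, -0.13 and -0.34. Of all expressed genes, 27.5%, 27.2% and 26.3% were then higher and 30.5%, 30.8% and 38.3% lower. This comparison shares its EGFP GC cells with that of Ascl4 GC and its EGFP CA1 cells with that of Ascl4 CA1, so the values are only set side by side. Ndufa9 had a log2 ratio of 1.47, Ndufv1 1.02, Ndufc2 0.97, Atp5j2 0.84, Ndufs1 0.66, Ndufa5 0.60, Ndufs6 0.60 and Ndufa2 0.59. For all 8, both the share of cells at 10 CPM and the median of those cells were higher in EGFP CA1.

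Ndufa9 stood at 76.2 CPM in EGFP GC, 212.9 in EGFP CA1, 216.3 in Ascl4 CA1 and 313 in Ascl4 GC, so that EGFP GC was the low group. Ndufv1 stood at 196.96, 399, 293 and 468 CPM and Ndufc2 at 133.9, 263, 226.1 and 385 CPM in the same order of groups. For Atp5b (1491, 1728, 1579 and 2664 CPM) and Sdhb (328, 323, 286 and 672 CPM), in that order, Ascl4 GC was the high group and the other groups lay close. The 4 lower members in EGFP CA1 were Sdha (-0.70), Ndufb11 (-0.64), Ndufs7 (-0.61) and Ndufb2 (-0.60). For Sdha, which binds succinate, summed reads gave 472 CPM in EGFP GC and 291 in EGFP CA1. Its medians over cells were 185.1 and 215.3, in the opposite order, and 1 EGFP GC cell reached 4004 CPM. Sdha had a log2 ratio of -0.09 in the first number run and -1.17 in the second.

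The 7 complex IV isoforms under the expression limit are mostly known from other tissues, such as Cox6a2, Cox7a1 and Cox8b from heart and skeletal muscle and Cox8c from testis. Cox7a1 had 0 reads in EGFP GC, which allows up to 0.014 CPM at 3 counts over the group, and 828 reads in Ascl4 GC, where 8 of 51 cells had a read and 6 reached 10 CPM. Of those reads, 396 remained without the cells with more than 12000 genes. In Ascl4 GC (2.83 CPM) Cox7a1 stood 202.5-fold above this limit, with 272 of the 828 reads in 1 cell. The limit covers counting error and not the spread between cells, so this is no lower bound of a difference between the groups. In EGFP CA1 and Ascl4 CA1, Cox7a1 had 4 and 11 reads. Cox6a2 had 3 and 1324 reads in EGFP GC and Ascl4 GC, with 62% of the latter in 1 cell, and 0 and 719 reads in EGFP CA1 and Ascl4 CA1, with 99.6% of the latter in 1 cell. Cox4i2, the isoform of subunit 4 linked to low oxygen, had 511 reads in EGFP GC, 99.6% of them in 1 cell, and at most 27 in any other group. Cox7b2, Cox8b and Cox8c had 0 reads in both EGFP groups, and 2 to 59 reads in the Ascl4 groups. These reads lay in few cells. In Ascl4 GC, 49 of the 50 Cox7b2 reads lay in 1 cell. Without the cells with more than 12000 genes, 0 of 28 Cox8b reads and 1 of 8 Cox8c reads remained there. In Ascl4 CA1, all 59 Cox8b reads lay in 1 cell, and 5 of 10 Cox8c reads remained without such cells. For the c-subunit of complex V, Atp5g3 had 329 CPM in EGFP GC, Atp5g1 103.3 and Atp5g2 2.14.

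Pairs of single members varied together only weakly from cell to cell, and some pairs of whole complexes more so. The median rank correlation over 2850 pairs was 0.11 in EGFP GC and 0.10 in Ascl4 GC, and 0.18 in EGFP CA1 against 0.10 in Ascl4 CA1. Pairs from the same complex had medians of 0.11, 0.10, 0.19 and 0.10, and pairs from different ones 0.10, 0.09, 0.17 and 0.10. Summed complex I and complex IV had rank correlations of 0.64, 0.59, 0.73 and 0.60, and complex I and complex V 0.48, 0.50, 0.71 and 0.65. Complex II, with its 4 genes, had lower values with complex I, at 0.15, 0.27, 0.37 and 0.04, and with complex IV, at 0.14, 0.15, 0.32 and -0.02. Complex III with complex IV (0.30, 0.30, 0.56 and 0.24) and complex IV with complex V (0.33, 0.35, 0.61 and 0.28) lay between, with their lowest values in Ascl4 CA1. Complex II had 0.34, 0.25, 0.42 and 0.34 with complex III, and 0.15, 0.28, 0.24 and 0.15 with complex V. All these values describe 47, 51, 46 and 45 cells whose values share a library and a total.

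The summed members had rank correlations of 0.21, 0.28, 0.18 and 0.07 with the summed mitochondrially encoded subunits. With mitochondrial reads left out of the total, these were 0.25, 0.38, 0.25 and 0.17. The summed members had rank correlations of 0.33, 0.35, 0.54 and 0.53 with a list of cytochrome c, carriers and channels of ATP and phosphate, creatine kinases and the ATPase inhibitor. With the number of reads in a cell the correlations lay between -0.12 and 0.04. With the number of genes with a read they were 0.09, -0.17, -0.35 and -0.35.

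The other genes of the pathway did not share one pattern. Their counts stand against the shares of all expressed genes given above for each comparison. The mitochondrially encoded subunits summed to 8217 CPM in EGFP GC and 16038 in Ascl4 GC, and 13158 in EGFP CA1 against 12391 in Ascl4 CA1. In Ascl4 GC against EGFP GC, 8 of the 9 expressed ones were at least 1.5-fold higher and none lower, led by mt-Nd3 (1.91), mt-Nd2 (1.44) and mt-Nd4 (1.16), all subunits of complex I. Of these, mt-Nd3 was low, at 2.50 CPM in EGFP GC and 12.15 in Ascl4 GC, while mt-Nd2 stood at 394.7 and 1073 CPM. Per cell, the medians of the sum were 4630 CPM in EGFP GC and 4942 in Ascl4 GC, close to each other, while in 4 Ascl4 GC cells of the second number run these subunits took 6.83% to 20.5% of the reads, against at most 5.56% in any EGFP GC cell. The median ratio was -0.15 in the first number run and 1.84 in the second, so the higher sum lay in the second run. In EGFP CA1 against EGFP GC, 6 of 8 were higher and none lower, led by mt-Nd5 (1.03), mt-Nd6 (0.93) and mt-Nd2 (0.75). In Ascl4 CA1 against EGFP CA1, mt-Nd3 alone (1.82) of 9 was higher, at low levels of 5.38 CPM in EGFP CA1 and 21.58 in Ascl4 CA1.

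Of the assembly factors of the complexes, 11 of 44 were higher and 14 lower in Ascl4 GC, shares close to the background. Acad9 (2.18), an assembly factor of complex I, was the highest, and Ndufaf6 (-2.13) and Cox10 (-1.84) were the lowest of those named by size. In Ascl4 CA1, 4 of 46 were higher and 13 lower, including Cox15 (-2.31), which makes heme A, and Ndufaf4 (-1.84), while Bcs1l (1.97) was higher, with 4.74 in the first number run and -0.99 in the second and 5 to 6 cells per group at 10 CPM. Tmem126b (2.75) and Coa7 (2.16) led the 13 of 46 that were higher in EGFP CA1 than in EGFP GC, and Bcs1l (-2.00) was among the 11 that were lower.

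Of the regulators of mitochondrial transcription and biogenesis, 4 of 14 were higher and 7 lower in Ascl4 GC, among them Polg (-2.62), the mitochondrial DNA polymerase, Gabpb1 (-1.74, with 0.55 and -1.85 in the 2 number runs) and Tfb1m (-1.58). In Ascl4 CA1, 3 of 12 were higher, with Polg at 1.68, and 5 lower, with Twnk at -1.57 (0.75 and -2.01 in the 2 runs) and Gabpb1 at -1.46. Ppargc1a (2.54), the coactivator PGC-1alpha, and Twnk (2.48) led the 8 of 14 that were higher in EGFP CA1 than in EGFP GC, and Tfb1m (-2.18) was among the 3 that were lower. These genes were low, so that few cells carried each difference: Ppargc1a reached 10 CPM in 3 EGFP GC and 6 EGFP CA1 cells.

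Of the genes of the TCA cycle and pyruvate entry, 5 of 21 were higher in Ascl4 GC, led by fumarase, Fh1 (1.45), and 3 were lower, with the pyruvate carrier subunit Mpc2 (-1.02) and Pdk1 (-0.95) the largest. Both Fh1 (3.26 and -0.09) and Pdk1 (-2.59 and 0.13) had opposite signs in the first and the second number run. In Ascl4 CA1, 1 of 21 was higher and 5 lower, with Dlst (-1.64), Pdk2 (-1.20) and Fh1 (-1.12) the largest. In EGFP CA1 against EGFP GC, 2 of 21 were higher and 5 lower, with Pdk3 (-1.05), Fh1 (0.99) and Mpc1 (-0.78) the largest. Of these 10 genes of electron and ATP transfer, 1 was higher (the creatine kinase Ckb, 0.68) and 1 lower (Cycs, cytochrome c, -0.79) in Ascl4 GC, and 1 higher (the mitochondrial creatine kinase Ckmt1, 0.60) and 1 lower (Slc25a4, the ATP exporter, -0.63) in Ascl4 CA1. Vdac1 (0.77), a channel of the outer membrane, was the one past 1.5-fold between EGFP CA1 and EGFP GC. Of 16 glycolysis genes, 2 were higher (Ldhb 0.84, Ldha 0.76) and 2 lower in Ascl4 GC, with Gapdh (-0.80, and -2.14 and 0.54 in the 2 runs) the larger of these. In Ascl4 CA1, Aldoc (-1.97), which is also an astrocyte marker, was the 1 of 16 that was lower, and none was higher. Ldha (1.08), Eno1 (0.76) and Pfkp (0.69) led the 5 of 16 (31.2%) that were higher in EGFP CA1, a share at the background of 30.5%, while none was lower.

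Interferon-induced genes were higher in both Ascl4 groups, while the markers of other cells did not share one direction. Interferon-induced genes summed to 110.6 CPM in EGFP GC and 1615 in Ascl4 GC, and 210.4 in EGFP CA1 against 2223 in Ascl4 CA1. Of the expressed ones, 18 of 18 were at least 1.5-fold higher in Ascl4 GC and 16 of 17 in Ascl4 CA1. Over cells the sum ran from 0.192 to 815 CPM in EGFP GC and from 0.571 to 7905 in Ascl4 GC, and from 0 to 1931 in EGFP CA1 and 0.164 to 30166 in Ascl4 CA1. Mx1, Rsad2, Ifi44 and Zbp1 had 0 reads in EGFP GC. Within groups, the summed members had rank correlations of -0.02, -0.21, -0.03 and -0.13 with this sum.

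Microglia markers summed to 804 CPM in EGFP GC and 1719 in Ascl4 GC, and 2265 in EGFP CA1 against 4831 in Ascl4 CA1. Of them, 8 of 15 were higher and 1 lower in Ascl4 GC, and 12 of 17 higher and 1 lower in Ascl4 CA1. Over cells they ran from 0 to 16472 CPM, 0.401 to 15835, 7.30 to 25421 and 1.01 to 61422, with none of the 18 at 0 reads in any group. Medians per cell were 31.8, 164.2, 805.5 and 1072 CPM. In Ascl4 CA1 the median ratio of these markers was -0.76 in the first number run and 1.70 in the second, and 4 of the 17 had the same sign in both. In Ascl4 GC it was 2.84 and 0.34, and 10 of the 15 had the same sign in both. These counts and those of the markers below stand against the shares of all expressed genes given above for each comparison. Oligodendrocyte markers summed to 635, 7613, 867 and 890 CPM, with 5 of 6 higher and none lower in Ascl4 GC, and 2 of 6 higher and 1 lower in Ascl4 CA1. The medians per cell stood in the opposite order in granule cells (238.3 CPM in EGFP GC and 44.7 in Ascl4 GC), and the median ratio there was -0.36 in the first number run and 2.89 in the second. They ran from 1.44 to 5326 CPM, 0.109 to 116096, 0.310 to 20548 and 0.375 to 36091 over cells, and Ugt8a was at 0 reads in both EGFP groups, with Opalin in EGFP CA1 and Olig2 in Ascl4 CA1. Of the astrocyte markers, 4 of 11 were higher and 5 lower in Ascl4 GC, and none of 8 was higher and 4 lower in Ascl4 CA1. Of the interneuron markers, 3 of 6 were higher and 1 lower in Ascl4 GC, and 1 of 5 was higher and 1 lower in Ascl4 CA1. Of the CA3 and mossy cell markers, 2 of 7 and 2 of 6 were higher and 1 was lower in each. None of the 12 endothelial and mural markers was expressed. The part of these cells and of the interferon-induced genes in the members' values was not tested.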

How the data were processed

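Read counts per gene symbol were deposited by the authors for 228 cells and, in the table used here, for those past quality control. STAR, HTSeq and the build GRCm38.p4 are named per the submitters' processing notes; versions, strand setting and quality limits were not stated there. The authors also deposited a normalized signal, which equalled each cell's counts divided by 1 factor; how that factor was made is not given in the sources used here. It served as an alternative.

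The members and all gene lists were chosen with earlier results of these data known. Counts of the cells past quality control were summed per group and scaled to counts per 1000000 reads (CPM) over 22870 gene rows, without 92 spike-in rows, which held 4 reads. The log2 ratio used a pseudocount of 1 CPM, and 1.5-fold was the limit for a difference. Each group is 1 sample, so nothing was tested. Exact 95% Poisson intervals cover the counting error of reads only. That of a log2 ratio had a half-width of at most 0.019 for the median member, far under the spread between cells. Exact 95% binomial intervals of shares of cells treat the cells as independent draws. They do not cover the spread between animals, and an overlap or gap between them is no test of the groups. The number runs split cells by a gap in the title numbers, and what they stand for is not given. Cells of EGFP GC split 15 to 32 between the runs, while those of Ascl4 GC split 33 to 18. For EGFP CA1 the split was 15 to 31, and for Ascl4 CA1 17 to 28. Ratios of summed reads between the granule cell groups thus set unlike mixes of the runs side by side. The part of this imbalance in those ratios was not tested.

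Named members were up to 10 highest and 10 lowest per comparison past 1.5-fold with the same direction in the mean over cells and in both runs, a fixed set of core subunits and isoforms, the highest and lowest of each complex and the most variable member; other members past 1.5-fold were named after their values were seen. Values of 1 member and 1 motif count are not reported here, though the member stays in all counts. Of each other pathway list, up to 3 genes past 1.5-fold were named by size. Lists covered assembly factors, mitochondrially encoded subunits, regulators, TCA cycle, electron and ATP transfer, glycolysis, interferon-induced genes and markers of other cells. Positions, exon lengths and shared 50-base stretches came from GENCODE M21 (GRCm38), which held 83 of the 84 members, and upstream sequences from RefSeq (GRCm38.p6). Python 3.11.15 with pandas 2.3.3 and scipy 1.17.1 was used, and edgeR 4.0.16 and DESeq2 1.42.0 gave alternative scaling factors. The NRF1 motif forms were chosen after a first count was seen. The ratio step was tested on simulated data.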

Additional observations from a re-analysis of the deposited data

Results flagged for a closer look

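Atp5j2, which encodes subunit f of the membrane part of ATP synthase, had a log2 ratio of summed CPM of 0.66 in Ascl4 GC against EGFP GC and of -0.59 in Ascl4 CA1 against EGFP CA1, past 1.5-fold in opposite directions. The difference between these ratios was not tested, since each group is 1 sample. Of the Ascl4 GC cells, 31 of 51 lay above the EGFP GC median, and of the Ascl4 CA1 cells 15 of 45 lay above the EGFP CA1 median. In CA1 the ratio was -1.52 in the first number run and -0.04 in the second.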

How the results depend on the processing

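No paired analysis was possible because the labels pair no cells and name no animal. Some medians changed sign, for example that of Ascl4 CA1 against EGFP CA1 in the second number run. For EGFP CA1 against EGFP GC, more members were lower than higher with TMM scaling, median-of-ratios scaling and the authors' normalized values. Under the alternatives, 88 summary values stayed within the counting error of a median or within 1.5 times of a count. The 56 others follow, and the cause was not tested. Depth limits isoforms at a few reads. In Ascl4 GC against EGFP GC (median log2 ratio 0.13, 13 higher, 2 lower), the mean over cells gave a median of 0.19 and 1 lower, that mean without the highest cell 0.22 and 8 higher, TMM scaling 0.08, the authors' normalized values 0.24 and 22 higher, all sequenced cells 0.10, the first number run 0.11 and 5 lower, the second 0.17 and 5 lower, and leaving out the deepest 10% of cells 0.09, 8 higher and 1 lower. Of all expressed genes, 26.6% were higher and 30.4% lower in the mean over cells. The shares were 26.6% and 30.5% in that mean without the highest cell, and 31.1% and 32.9% with the authors' normalized values. They were 38.7% and 33.9% in the first number run, and 27.1% and 38% in the second. Without the deepest 10% of cells they were 27.4% and 29.3%. In Ascl4 CA1 against EGFP CA1 (-0.10, 1 higher, 4 lower), the mean over cells gave -0.01, that mean without the highest cell -0.03 and 0 higher, TMM scaling -0.17 and 0 higher, median-of-ratios scaling -0.16 and 0 higher, the authors' normalized values -0.07, 4 higher and 10 lower, no expression filter -0.08 and 3 higher, all sequenced cells -0.05, the first number run -0.34, 4 higher and 27 lower, the second 0.08 and 6 higher, leaving out the deepest 10% of cells 4 higher, and leaving out cells against their label -0.18, 0 higher and 8 lower. Of all expressed genes, 37.4% were higher and 30.7% lower in the first number run, and 26.6% and 30.6% in the second. The shares were 24.3% and 24.7% in the mean without the highest cell, and 23.7% and 29.5% with the authors' normalized values. They were 25% and 25.8% without the deepest 10% of cells, and 24% and 24.5% without cells against their label. With no expression filter, 20.7% and 17.3% of all gene rows were higher and lower. In EGFP CA1 against EGFP GC (-0.01, 8 higher, 4 lower), the mean without the highest cell gave 0.01 and 2 lower, TMM scaling -0.12, 4 higher and 7 lower, median-of-ratios scaling -0.13, 4 higher and 7 lower, the authors' normalized values -0.34, 4 higher and 25 lower, a pseudocount of 10 CPM 5 higher, all sequenced cells -0.06, 3 higher and 7 lower, the first number run 19 higher and 12 lower, the second 8 lower, and leaving out the deepest 10% of cells 2 lower. Of all expressed genes, 26.3% were higher and 38.3% lower with the authors' normalized values. The shares were 38.5% and 37.5% in the first number run, and 33% and 27.2% in the second. They were 35.8% and 24.3% in the mean without the highest cell, and 26.5% and 23.4% with a pseudocount of 10 CPM. With all sequenced cells they were 30% and 27.3%, and without the deepest 10% of cells 30.9% and 27.7%.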
